A study of Mus musculus with 8 samples.

Results

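The CC chemokine ligands are small secreted proteins that attract leukocytes, and 10 of their genes were followed here: Ccl2, Ccl3, Ccl4, Ccl5, Ccl6, Ccl7, Ccl8, Ccl9, Ccl12 and Ccl22. They were chosen by gene symbol, as members of the family, out of 17364 genes in each library. RNA sequencing of poly(A)-enriched RNA was done on bone-marrow-derived macrophages, that is, macrophages grown in culture from mouse marrow. The wild-type group (4 libraries) came from wild-type mice and the Sept2C111A group (4 libraries) from mice with the Sept2C111A allele, whose name gives a cysteine-to-alanine change in septin 2, a GTP-binding cytoskeletal protein. Every culture, wild-type ones included, was given TNF-α (30 ng/ml, 24 h), so all values describe the treated state. The sources used here do not give the strain, the age or whether the mutant mice carried the allele on both chromosomes. Whether the libraries of a group stand for different mice is not stated in the labels, so a p-value here speaks only of the spread among these libraries, which may be technical. The series' title places the study in macrophage inflammation and migration.

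CC chemokines carry 2 adjacent cysteines near their amino terminus, bind receptors that couple to inhibitory G proteins on the target cell, and are held on glycosaminoglycans of the cell surface and matrix, where they form gradients. Inflammatory members such as Ccl2, Ccl3, Ccl4 and Ccl5 are induced in macrophages by TNF and microbial products through NF-κB, and Ccl5, Ccl8 and Ccl12 also respond to interferon. Ccl6 and Ccl9 are rodent ligands that myeloid cells make in quantity without a stimulus.

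Total counts ran from 19543973 to 21288521 per library. Septin2 (the symbol of Sept2 in the files) measured 226 ± 7.43 CPM in the wild-type and 188 ± 18.7 CPM in Sept2C111A libraries, a log2 fold change of -0.27 that did not pass (adjusted p = 0.0627), although each Sept2C111A library was below each wild-type library. It was called lower by DESeq2, by voom with sample weights and in edgeR without Sept2C111A library 3 or libraries 2 and 3. CPM is the count scaled to the normalized library total, and values with ± are means and SDs over 4 libraries. Counts per gene do not show the changed codon. The 8 macrophage markers summed to 22680 to 24460 CPM in the wild-type and 20460 to 22450 CPM in Sept2C111A libraries. The labelled cell type was thus seen in all libraries, and the ranges of the groups did not overlap. Only 1 marker passed, Fcgr1, which was higher, as 3.43% of all tested genes were. An unadjusted p under 0.05, in either direction, was held by 7 of the 8, against 24.8% of all tested genes. Lyz2 was the most abundant of the 8 and made up most of the sum. It measured 14365 ± 498 CPM in the wild-type and 12366 ± 897 CPM in Sept2C111A libraries (adjusted p = 0.12). Of the 8, 4 had a positive log2 fold change. The 10 stromal fibroblast markers summed to 3997 to 5132 CPM in the wild-type and 3053 to 3964 CPM in Sept2C111A libraries. Of the 9 tested, 3 were lower (Col1a1, Postn and Fbn1), against 3.03% of all tested genes. An unadjusted p under 0.05 was held by 7 of the 9, against 24.8%. None had a positive log2 fold change, which 6460 of all 12462 tested genes had, and none was at 0 throughout. The neutrophil markers summed to 2.05 to 8.18 CPM, with Ly6g, Mpo and Elane at 0 in every wild-type library. Sept2C111A libraries differed more from each other than wild-type libraries did: the mean chi-square per gene of a pair ran from 14.1 to 63.3 within Sept2C111A and from 3.87 to 9.73 within wild type.

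Of the 10 genes, all of which passed the filter on low counts, 5 fell (Ccl2, Ccl3, Ccl4, Ccl5 and Ccl22), 1 rose (Ccl6) and 4 did not pass (Ccl7, Ccl8, Ccl9 and Ccl12). The call was an adjusted p under 0.05 in edgeR's quasi-likelihood test with Benjamini-Hochberg adjustment over all 12462 tested genes, of which 3.03% were called lower and 3.43% higher, 6.46% in all. At an unadjusted p under 0.05 there were 8 of the 10, against 24.8% of all tested genes. The highest Sept2C111A library was under the lowest wild-type library for Ccl2, Ccl3, Ccl4, Ccl5 and Ccl9, a pattern held by 8.47% of tested genes, and for Ccl6 the lowest was over the highest, which also 8.47% held. The median log2 fold change of the 10 was -0.51, where that of all tested genes was 0.01. Each library measures a whole culture, so fewer cells of a type and less RNA per cell cannot be told apart. The summed stromal and macrophage markers given above were also lower in Sept2C111A libraries, although 4 of the 8 macrophage markers had a positive log2 fold change. The part of these cells in the results was not tested.

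**Figure D1:**
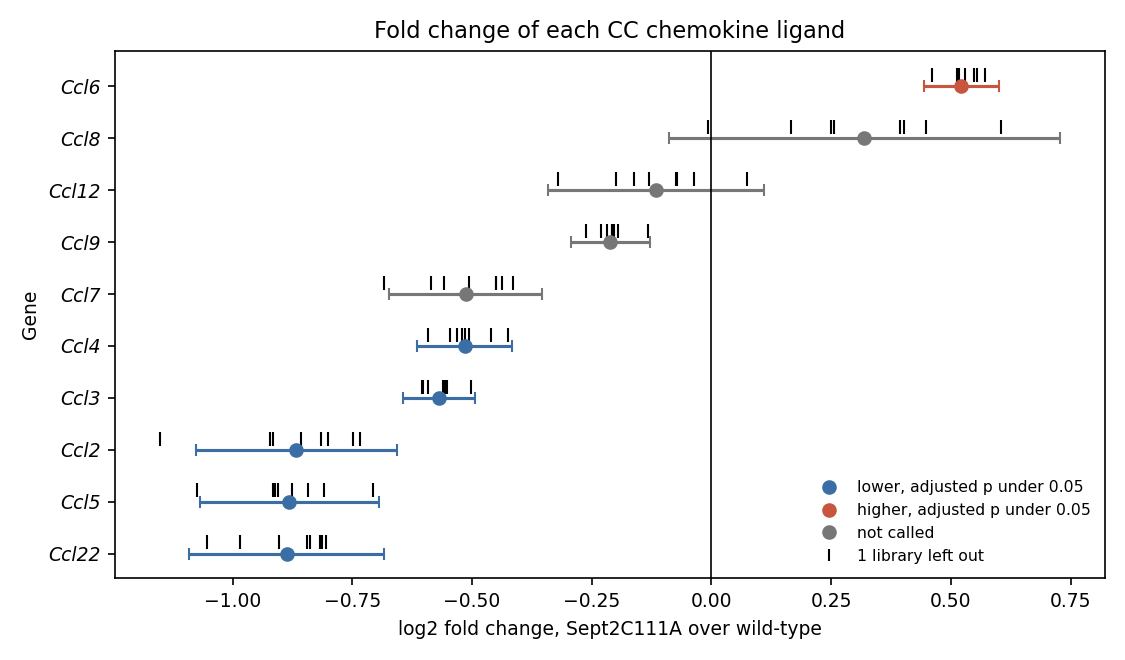
Log2 fold change of each gene, Sept2C111A over wild-type (x axis), for the 10 genes (y axis). Circles and bars are the estimate and its SE from 4 against 4 libraries, coloured by the call, and ticks are the estimates with 1 library left out. Ccl6 alone lies to the right of 0 with a call, at 0.52, and the 5 called lower lie between -0.89 and -0.52.

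Levels of different genes were compared per kilobase of the principal GENCODE transcript, whose lengths ran from 511 bases (Ccl8) to 3006 bases (Ccl9). The transcript set that the submitters counted on is not given in the sources used here, so these levels depend on that choice. In wild-type libraries Ccl5 (364 ± 35.3 CPM per kilobase), Ccl9 (342 ± 6.37) and Ccl6 (325 ± 10.1) led. The ranges of these 3 overlapped from each to the next. Compared within each library, Ccl9 was above Ccl6 in all 4, and Ccl5 was above Ccl9 in 3 of 4. Ccl3 (224 ± 8.14), Ccl4 (169 ± 12.5), Ccl2 (73.9 ± 10.1), Ccl7 (37.1 ± 5.88), Ccl12 (9.96 ± 1.47), Ccl22 (2.37 ± 0.596) and Ccl8 (1.20 ± 0.211 CPM per kilobase) followed, each below the lowest library of the gene before it. In Sept2C111A libraries Ccl6 came first, at 466 ± 47.7 CPM per kilobase, and its lowest library lay above the highest of Ccl9 (295.5 ± 33.1). The range of Ccl5, at 198 ± 62.2 CPM per kilobase, overlapped those of both Ccl9 and Ccl3 (151 ± 14.9). Within libraries Ccl9 was above Ccl5 in all 4, and Ccl5 was above Ccl3 in 3 of 4. Ccl22 was last, at 1.28 ± 0.203. Its range overlapped that of Ccl8, at 1.51 ± 0.882 CPM per kilobase, which was the higher in 3 of 4 libraries.

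**Figure D2:**
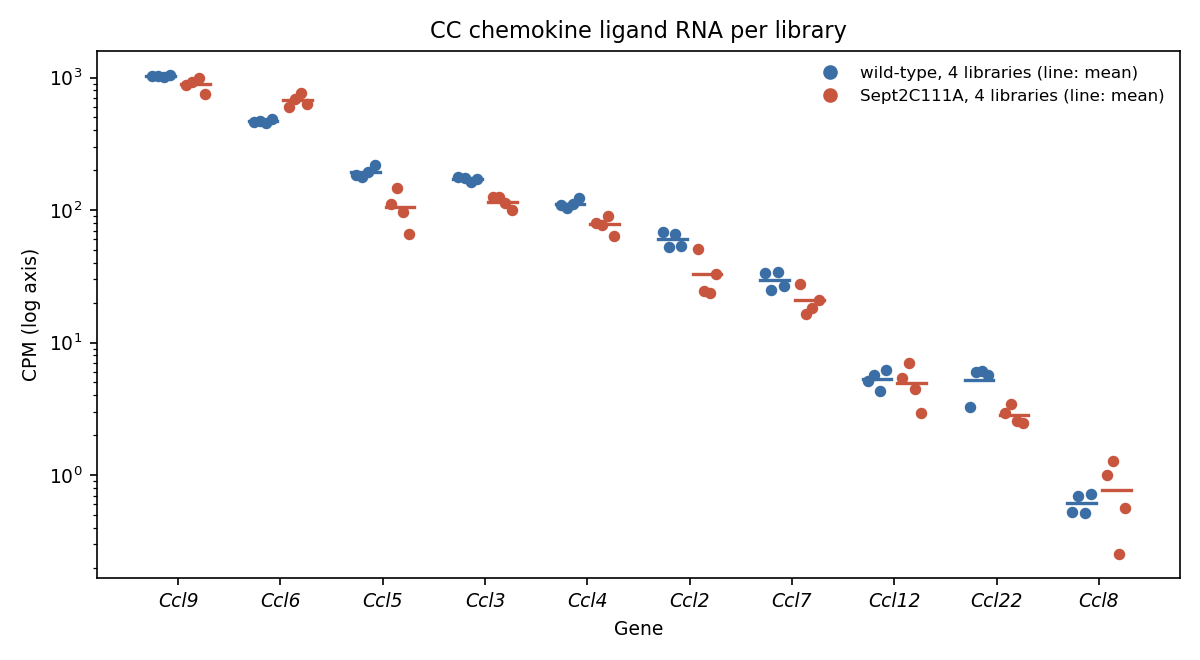
CPM (log axis) of the 10 genes in every library, ordered by the wild-type mean. Points are libraries and lines are means of 4. The Sept2C111A points of Ccl6, at 602 to 758 CPM, lie above the wild-type points, at 456 to 488 CPM, and those of Ccl3 lie below, at 101 to 125 against 163 to 176 CPM.

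Ccl3 and Ccl4 encode the macrophage inflammatory proteins that draw monocytes, T cells and NK cells, Ccl3 through Ccr1 among others. Both fell in the Sept2C111A libraries, to means of 116 ± 11.4 from 172 ± 6.24 CPM (Ccl3) and of 77.8 ± 10.9 from 111 ± 8.25 CPM (Ccl4). Ccl3 measured 176, 175, 163 and 173 CPM in wild-type libraries 1 to 4 and 125, 125, 113 and 101 CPM in Sept2C111A libraries 1 to 4. The groups were well apart, the lowest wild-type library at 1.3 times the highest Sept2C111A library. The mean fell by 32.6%, a log2 fold change of -0.57 (SE 0.076, adjusted p = 0.00181). Ccl4 measured 109, 103, 110.4 and 123 CPM in the wild-type and 80.6, 77.2, 89.97 and 63.7 CPM in Sept2C111A libraries. Sept2C111A library 4 was the lowest for both genes, and again the groups did not overlap. The log2 fold change of Ccl4 was -0.52 (SE 0.099, adjusted p = 0.0136). The ratio of Ccl3 to Ccl4 CPM was 1.55 ± 0.132 in wild-type and 1.50 ± 0.166 in Sept2C111A libraries, a difference smaller than the spread within either group. The call of Ccl3 held with any library left out. That of Ccl4 did not hold in 3 of these fits, those lacking wild-type library 3 (adjusted p = 0.054), wild-type library 4 (0.0523) and Sept2C111A library 2 (0.0513). The pair lies on chromosome 11 of mm10, Ccl3 at 83647843 to 83649378 on the minus strand and Ccl4 at 83648624 to 83664683 on the plus strand in RefSeq. The 2 RefSeq genes overlap on opposite strands, while the GENCODE genes do not. Antisense genes also overlap Ccl2 (Gm17268) and Ccl6 (E230016K23Rik) in GENCODE, and Gm32650 overlaps Ccl5 in RefSeq. Without knowledge of the strand setting, reads of a gene and of its antisense partner cannot be told apart. Gm17268, E230016K23Rik and Gm32650 were not among the gene symbols counted, so they had no values here.

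Ccl5, the ligand also known as RANTES, acts on T cells, monocytes and eosinophils, through Ccr1 and Ccr3 among others. It measured 183, 178, 195 and 219.8 CPM in wild-type libraries and 112, 146, 97.1 and 66.1 CPM in Sept2C111A libraries. No Sept2C111A library reached the lowest wild-type library, but they were spread widely among themselves, from 66.1 in library 4 to 146 in library 2. The mean was lower by a log2 fold change of -0.88 (SE 0.19, adjusted p = 0.0212). The coefficient of variation was 9.69% in wild-type and 31.4% in Sept2C111A libraries, both above the 1.56% and 2.18% that counting alone gives. Some fits that lacked a wild-type library no longer called Ccl5: library 1 (adjusted p = 0.0602), library 3 (0.072) and library 4 (0.0661). T and NK cells also make Ccl5. The T cell genes Cd3d and Cd3g were at 0 and 0.0119 CPM in the wild-type and at 0.0118 and 0.0237 CPM in Sept2C111A libraries on average. They do not mark NK cells. Klrb1c, an NK cell gene of the same marker list, was at 0.545 ± 0.200 and 0.429 ± 0.147 CPM (adjusted p = 0.62). Cd8a was at 0.602 ± 0.123 and 0.487 ± 0.156 CPM (adjusted p = 0.559). Cd4 of this list, which some macrophages express too, was higher (14.5 ± 0.563 to 21.1 ± 2.12 CPM). The part of such cells in the result was not tested. Ccl5 lies at 83525778 to 83530518 of chromosome 11.

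Ccl2, Ccl7, Ccl12 and Ccl8 are the monocyte chemoattractant protein genes, which form a cluster on chromosome 11 from 82035577 (Ccl2) to 82116799 (Ccl8). Ccl2, Ccl7 and Ccl12 recruit monocytes through Ccr2, while mouse Ccl8 acts on Ccr8. Within this cluster Ccl2 fell, and the other 3 did not pass. Ccl2 measured 68.1, 52.6, 66.2 and 53.5 CPM in the wild-type and 50.5, 24.6, 23.6 and 32.7 CPM in Sept2C111A libraries. Sept2C111A library 1 lay close under the wild-type range, and libraries 2 and 3 far below it. The log2 fold change was -0.87 (SE 0.21, adjusted p = 0.0351). This was the largest p among the 6 calls, and it did not hold when any wild-type library was missing from the fit (adjusted p = 0.0572 to 0.112), nor when Sept2C111A library 2 (0.106) or 3 (0.0541) was. Without Sept2C111A libraries 2 and 3 together the log2 fold change was -0.53, with an adjusted p of 0.104. Fibroblasts also make Ccl2 and Ccl7, and the summed stromal markers stood in the same order as Ccl2 among Sept2C111A libraries: 3964 CPM in library 1, 3894 in library 4, 3321 in library 2 and 3053 in library 3. In wild-type libraries 1 to 4 they were 4865, 3997, 5132 and 4871 CPM, which is not the order of Ccl2, and their part in the result was not tested.

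Ccl7 measured 33.4, 24.8, 34.0 and 26.6 CPM in the wild-type and 27.7, 16.5, 18.1 and 20.9 CPM in Sept2C111A libraries. Only Sept2C111A library 1 reached into the wild-type range. The log2 fold change was -0.51 (SE 0.16) and did not pass (adjusted p = 0.079), but without Sept2C111A library 1 it was -0.68 and passed (adjusted p = 0.0173). DESeq2 called it lower too. Wild-type libraries 1 and 3 were the highest for both Ccl7 and Ccl2, and Sept2C111A libraries 2 and 3 the lowest. The ratio of Ccl2 to Ccl7 CPM was nonetheless 1.94 to 2.12 in wild-type and 1.31 to 1.82 in Sept2C111A libraries, with no overlap; no test was made of the ratio. Ccl12 measured 5.15, 5.74, 4.34 and 6.16 CPM in the wild-type and 5.39, 6.997, 4.48 and 2.93 CPM in Sept2C111A libraries. The highest and the lowest library were both Sept2C111A, and the log2 fold change of -0.12 (SE 0.23, adjusted p = 0.795) turned positive, to 0.075, without Sept2C111A library 4. Ccl8 was near the detection limit, at 0.525, 0.700, 0.519 and 0.716 CPM in the wild-type and 0.993, 1.27, 0.254 and 0.567 CPM in Sept2C111A libraries. These stand for 5 to 24 counts per library, and no difference was detectable at this depth (log2 fold change 0.32, SE 0.41).

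Ccl22 attracts cells that carry Ccr4, regulatory and type 2 helper T cells among them, and is made by dendritic cells and macrophages. It is the only one of the 10 genes outside chromosome 11, at 94745684 to 94751388 of chromosome 8. It measured 3.29, 5.97, 6.08 and 5.68 CPM in the wild-type and 2.93, 3.45, 2.54 and 2.46 CPM in Sept2C111A libraries. Wild-type library 1 lay within the Sept2C111A range, and the other wild-type libraries well above it. The log2 fold change was -0.89 (SE 0.20, adjusted p = 0.0294) on 50 to 129 counts per library. Without wild-type library 1 it was -1.05 (adjusted p = 0.00726), and the call did not hold in fits lacking one of wild-type libraries 2, 3 and 4 (adjusted p = 0.0771 to 0.108), Sept2C111A library 3 (0.0537) or Sept2C111A libraries 2 and 3 (0.0613). It was also lost in voom with sample weights (0.0784). The dendritic cell markers summed to 2.10 CPM in wild-type library 1, to 3.44 to 3.49 CPM in the other wild-type libraries and to 2.46 to 3.08 CPM in Sept2C111A libraries. Of the 3 dendritic cell markers tested, none was called and none had an unadjusted p under 0.05 in edgeR. Their part in the result was not tested.

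Ccl6 and Ccl9 lie side by side on the minus strand of chromosome 11, Ccl9 at 83572917 to 83578636 and Ccl6 at 83587886 to 83593087, and both encode ligands of Ccr1. Ccl6 rose and Ccl9 did not pass. Ccl6 measured 459, 468, 456 and 488 CPM in the wild-type and 602, 692, 758 and 634 CPM in Sept2C111A libraries. Every Sept2C111A library was above every wild-type library, and the wild-type values stood within a coefficient of variation of 3.11%. The rise of 43.6% was a log2 fold change of 0.52 (SE 0.078, adjusted p = 0.00352), and the call held with any library left out. Ccl9 measured 1025, 1031, 1005 and 1051 CPM in the wild-type and 884, 932, 985 and 753 CPM in Sept2C111A libraries. All Sept2C111A libraries lay below the wild-type range, library 4 by the most, and library 3 closest to it, the lowest wild-type library being 1.02 times its value. The log2 fold change of -0.21 (SE 0.082) did not pass (adjusted p = 0.146). It passed without Sept2C111A libraries 2 and 3, at -0.33 and an adjusted p of 0.0277. The ratio of Ccl6 to Ccl9 CPM was 0.448 to 0.464 in wild-type and 0.681 to 0.843 in Sept2C111A libraries, with no overlap; no test was made of the ratio. Of the 50-base stretches of each principal transcript, none was found in transcripts of another gene for 9 of the 10 ligands, and 2.0% were for Ccl9, none of them shared with the other ligands.

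The start-site sequences of this pair are shown because the genes are neighbours, are related and only Ccl6 was called. Both windows are from RefSeq on GRCm38.p6 (mm10), from 250 bases before to 50 bases after the annotated start, on the minus strand, at chr11:83593038-83593337 for Ccl6 and chr11:83578587-83578886 for Ccl9. Capitals mark bases that lie in runs of at least 10 bases found in both windows. The first stretch of capitals in Ccl9, of 19 bases, joins 2 overlapping runs of 12 and 13 bases. These lie apart in Ccl6, so the stretch as a whole is not in the Ccl6 window.
Ccl6: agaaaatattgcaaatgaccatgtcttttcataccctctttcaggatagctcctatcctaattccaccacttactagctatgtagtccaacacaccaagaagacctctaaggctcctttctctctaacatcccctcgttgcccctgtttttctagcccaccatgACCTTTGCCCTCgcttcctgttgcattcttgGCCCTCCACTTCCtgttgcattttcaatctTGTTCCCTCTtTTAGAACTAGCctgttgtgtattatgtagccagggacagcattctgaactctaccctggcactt
Ccl9: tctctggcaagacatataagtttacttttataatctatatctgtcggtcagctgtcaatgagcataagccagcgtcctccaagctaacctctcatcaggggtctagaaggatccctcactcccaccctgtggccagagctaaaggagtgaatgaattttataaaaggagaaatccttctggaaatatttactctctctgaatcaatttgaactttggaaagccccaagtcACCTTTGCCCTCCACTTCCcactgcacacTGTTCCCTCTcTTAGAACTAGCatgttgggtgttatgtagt
In Ccl6 46 of the 300 bases lay in such runs, and in Ccl9 40. The last of the runs ends at base -4 relative to the Ccl6 start and at base 31 after the Ccl9 start, so the annotated starts are offset against it. The longest exact run common to the pair was 13 bases, where other pairs among the 6 ligands with a window had 7 to 11. Over the whole windows 47.1% of aligned positions were identical, within the 44.3% to 55.7% of the other pairs. A match to the kappa B motif, which NF-κB binds, was present on the reverse strand of the Ccl9 window at base -35 (GGAAAGCCCC as read in the line above), and an AP-1 match, TGANTCA, at base -53. The windows of Ccl3, Ccl6, Ccl8, Ccl12 and Ccl22 held neither, and none of the 6 held the core of the interferon-stimulated response element, GAAA, any 2 bases and GAAA again. Searched on both strands in all 32851 windows, with no overlap between the matches in Ccl9, these motifs were present in 8.46%, 7.81% and 3.44%. Ccl2, Ccl4, Ccl5 and Ccl7 had no entry. A match is a description of letters and no measure of binding.

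The summed level of the family overlapped between the groups, while its make-up differed. The 10 genes summed to 2063, 2045, 2039 and 2148 CPM in the wild-type and 1891, 2025, 2092 and 1677 CPM in Sept2C111A libraries, ranges that overlapped. Without Ccl6 and Ccl9 the other 8 summed to 546 to 608 CPM in the wild-type and 290.1 to 405 CPM in Sept2C111A libraries, which did not overlap. The share of Ccl6 in the summed CPM went from 22.6% ± 0.304 in wild-type to 35.02% ± 2.59 in Sept2C111A libraries. The share of Ccl9 was 49.6% ± 0.644 and 46.2% ± 0.969, that of Ccl5 9.33% ± 0.706 and 5.43% ± 1.44, and that of Ccl3 8.29% ± 0.313 and 6.04% ± 0.491. CPM is not divided by length here, so these are shares of reads and not of transcripts.

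**Figure D3:**
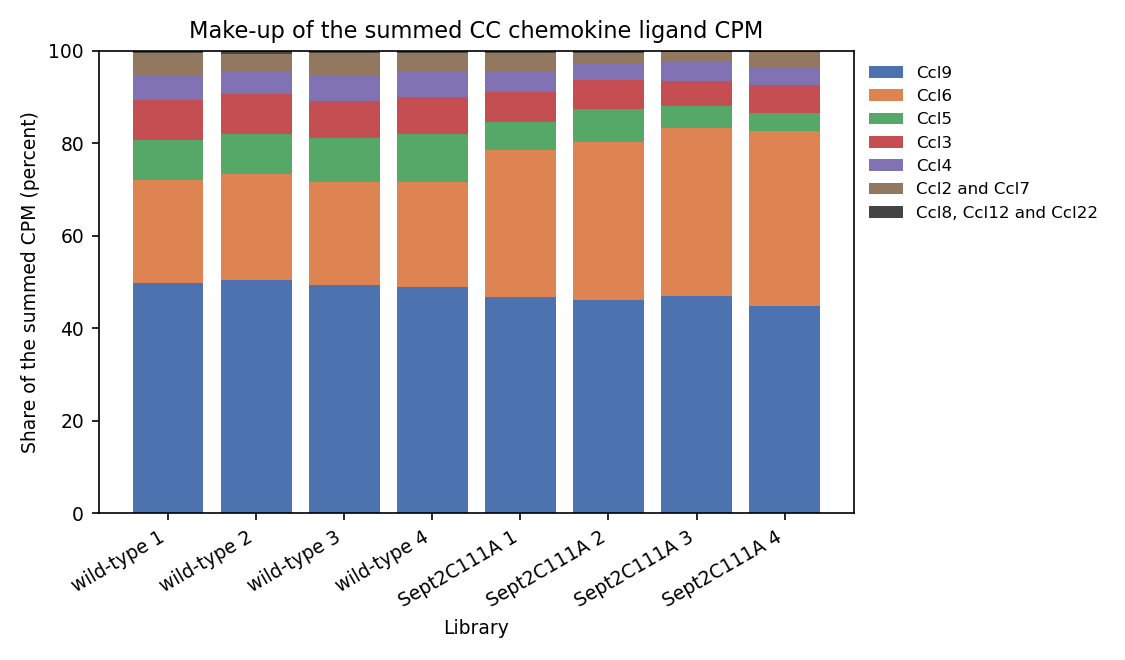
Share of each gene in the summed CPM of the 10 ligands (y axis, percent) for the 8 libraries (x axis); the low members are drawn together. Ccl6 takes 22.2% to 22.9% in wild-type libraries and 31.8% to 37.8% in Sept2C111A libraries.

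Within the Sept2C111A group the ligands peaked in different libraries. Ccl2 and Ccl7 were highest in library 1 and lowest in libraries 2 and 3. Ccl3, Ccl5, Ccl8, Ccl12 and Ccl22 were highest in library 2, Ccl3 by a small margin over library 1 (124.9 against 124.6 CPM). Ccl8 (24 against 21 counts) and Ccl22 (65 against 62 counts) were close in these 2 libraries too. Counting alone gives them a coefficient of variation of 25.4% and 13.2% in this group. Ccl4, Ccl6 and Ccl9 were highest in library 3. Ccl3, Ccl4, Ccl5, Ccl9, Ccl12 and Ccl22 had their lowest value in library 4, Ccl8 in library 3 and Ccl6 in library 1. For Ccl22 the margin under library 3 was small (2.46 against 2.54 CPM). By the distance between profiles of log2 CPM over the 8 libraries, each centred on its own mean, the most alike pair was Ccl3 and Ccl4 (0.368), followed by Ccl4 and Ccl9 (0.478) and Ccl3 and Ccl9 (0.554). Ccl2 was nearest to Ccl7 (0.666). The pair furthest apart was Ccl2 and Ccl6 (2.36). The coefficient of variation was larger in Sept2C111A than in wild-type libraries for 9 of the 10 genes, Ccl22 being the exception (25.1% in wild-type and 15.8% in Sept2C111A). The share of all tested genes with a larger one was not counted. By the chi-square given above, Sept2C111A libraries were more spread over genes in general. For Ccl8 the wild-type value of 17.5% was under the 27.7% that counting alone gives.

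**Figure D4:**
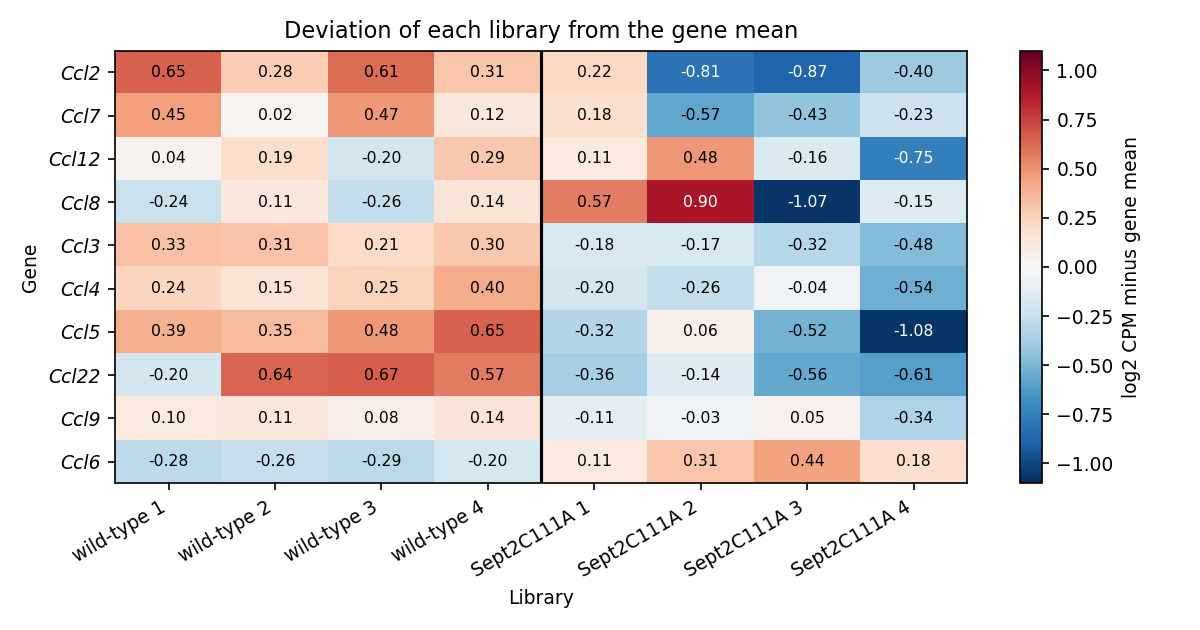
Log2 CPM minus the gene's mean over 8 libraries (colour and printed value), genes in rows and libraries in columns, with a line between the genotypes. Ccl2 and Ccl7 are lowest in Sept2C111A libraries 2 and 3, at -0.81 and -0.87 and at -0.57 and -0.43, while Ccl5 is lowest in library 4, at -1.08.

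Of 9630 tested genes outside the family whose mean reached 5 CPM, the profiles nearest to Ccl3 were those of Cdkn1a, an inhibitor of cell cycle kinases (distance 0.201), Cxcl2, a neutrophil chemoattractant (0.206), and Hmgcs1, an enzyme of sterol synthesis (0.245). Cxcl2 went from 198 ± 9.51 to 129 ± 12.5 CPM. Nearest to Ccl4 were Sdc4, a heparan sulfate proteoglycan (0.214), Mvd (0.215) and Fscn1, an actin-bundling protein gene (0.217). Ccl6 had the closest companions, Ly86, a partner of a Toll-like receptor homologue (0.088), Gng2, a G protein gamma subunit (0.104), and Lrmp (0.14). Ly86 rose from 187 ± 9.72 to 262 ± 28.8 CPM. The calls of Cdkn1a, Cxcl2, Hmgcs1, Ly86 and Gng2 held with any library left out. That of Lrmp was lost without wild-type library 1 or 3 (adjusted p up to 0.0586), that of Fscn1 without any of wild-type libraries 1, 3 and 4 and without Sept2C111A library 2 (up to 0.0714), and that of Mvd in the absence of any single wild-type library and of Sept2C111A library 2 (up to 0.0904). The distances are over 8 libraries, which all genes share together with their depth. These genes were picked for profiles near those of called ligands, so calls in the same direction were largely set by that choice.

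Among the CC chemokine receptor genes, Ccr1, Ccr2, Ccr3 and Ccrl2 did not pass the test. None of the receptor genes tested fell in edgeR or in DESeq2, which called 3.03% and 5.94% of all genes lower. In edgeR 0 were lower at an unadjusted p under 0.05. Of the 13 receptor genes found, 8 were too low to test. Ccr2, the receptor of Ccl2, Ccl7 and Ccl12, measured 1.67, 3.17, 2.07 and 2.86 CPM in the wild-type and 3.07, 3.60, 2.95 and 3.45 CPM in Sept2C111A libraries and did not pass (adjusted p = 0.225). Ccr1, at 2.09 ± 0.159 and 1.76 ± 0.322 CPM, did not pass either (adjusted p = 0.414). Ccrl2, a receptor that binds chemerin without signalling, measured 106 ± 3.75 and 104 ± 12.4 CPM and did not pass (adjusted p = 0.843). Ccr3 measured 9.50 ± 1.00 and 11.7 ± 2.74 CPM (adjusted p = 0.263) and was called higher without Sept2C111A libraries 2 and 3 (adjusted p = 0.0308).

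Of 26 genes of chemokine receptor signalling, 3 rose and 0 fell, where 3.43% of all tested genes were called higher and 3.03% lower. Gng2 rose from 66.8 ± 2.92 to 96.9 ± 12.2 CPM, and the regulators of G protein signalling Rgs2, which shortens the signal of Gq-coupled receptors, and Rgs10 rose from 13.9 ± 0.597 to 19.9 ± 1.42 CPM and from 133 ± 5.66 to 180.4 ± 28.4 CPM. Rgs10 was no longer called when any of the 4 wild-type libraries, library 2 of the Sept2C111A group or libraries 2 and 3 of that group were missing (adjusted p up to 0.0904). DESeq2 called 1 of the 26 lower, where it called 5.94% of all genes lower. In edgeR 12 had an unadjusted p under 0.05 in either direction, against 24.8% of all tested genes. Without Sept2C111A library 4 the counts were 6 higher and 4 lower. Calls over all tested genes rose in that fit too, to 8.69% higher and 7.81% lower. The median of their log2 fold changes was 0.06.

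Of 14 genes of chemokine trimming and glycosaminoglycan binding, Sdc4 was called lower (579 ± 32.2 to 414 ± 68.7 CPM) and none was called higher. Over all tested genes edgeR called 3.03% lower and 3.43% higher. DESeq2, which called 5.94% of all genes lower and 5.8% higher, called 6 of the 14 lower and 2 higher. Sdc4 was no longer called when any of the 4 wild-type libraries, or library 2 of the Sept2C111A group, was missing (adjusted p up to 0.0975). In this list 10 genes had an unadjusted p under 0.05 in edgeR, against 24.8% of all tested genes, and the median log2 fold change was -0.28. The list included Mmp2, Sdc1 and Sdc2, which fibroblasts express as well, and the stromal markers given above moved in the same direction; their part was not tested.

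Of 24 tested regulators of CC ligand transcription and mRNA decay, 4 rose and 2 fell, with a median log2 fold change of -0.04. Of all tested genes, 3.43% were called higher and 3.03% lower. An unadjusted p under 0.05 in edgeR was held by 9 of the 24, against 24.8% of all tested genes. Irf7, which drives interferon genes, measured 63.1, 84.9, 64.3 and 93.6 CPM in the wild-type and 305, 507, 386 and 297 CPM in Sept2C111A libraries. Irf8, a factor of myeloid development, rose from 115.5 ± 3.5 to 157 ± 14.9 CPM. Nfkbia, the inhibitor of NF-κB that NF-κB itself induces, fell from 605 ± 18.0 to 465 ± 21.6 CPM. The calls of Irf7, Irf8 and Nfkbia held with any library left out. Named after their values were seen, Irf9 was also called higher and Irf1 was the other called lower. Leaving out wild-type library 1, 3 or 4 ended both of these calls. That of Irf9 was also lost without Sept2C111A library 2 or libraries 2 and 3 (adjusted p up to 0.14), and that of Irf1 without wild-type library 2 or Sept2C111A library 1 (up to 0.102).

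Other CC ligand genes were low. Of 8 in the files, 4 were tested and 1 fell, against 3.03% of all tested genes. This was Ccl20, which attracts cells with Ccr6. It measured 11.3, 8.44, 9.20 and 6.11 CPM in the wild-type and 6.72, 2.86, 2.85 and 2.60 CPM in Sept2C111A libraries. Sept2C111A library 1 lay within the wild-type range, as it did for Ccl7. The log2 fold change was -1.21 (SE 0.29, adjusted p = 0.0349), and it missed the threshold in fits lacking any of wild-type libraries 1 to 3 (adjusted p up to 0.109), Sept2C111A library 2 (0.11), Sept2C111A library 3 (0.0629) or the last 2 together (0.156).

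The number of ligands called lower depended on single libraries, whereas the call of Ccl6 did not. It was 3 without wild-type library 1 (Ccl3, Ccl4 and Ccl22), 3 without wild-type library 2 (Ccl3, Ccl4 and Ccl5), and 1, Ccl3, without wild-type library 3 or 4. It was 6 without Sept2C111A library 1, with Ccl7 added, 3 without Sept2C111A library 2 (Ccl3, Ccl5 and Ccl22) and 3 without Sept2C111A library 3 (Ccl3, Ccl4 and Ccl5). Leaving out Sept2C111A library 4 gave 5. With Sept2C111A libraries 2 and 3 both left out, 4 were called, with Ccl9 in and Ccl2 and Ccl22 out. Of all genes tested, 0.827% were called lower without wild-type library 3 and 7.81% without Sept2C111A library 4. The fold changes of the 6 called genes kept their sign throughout.

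**Figure D5:**
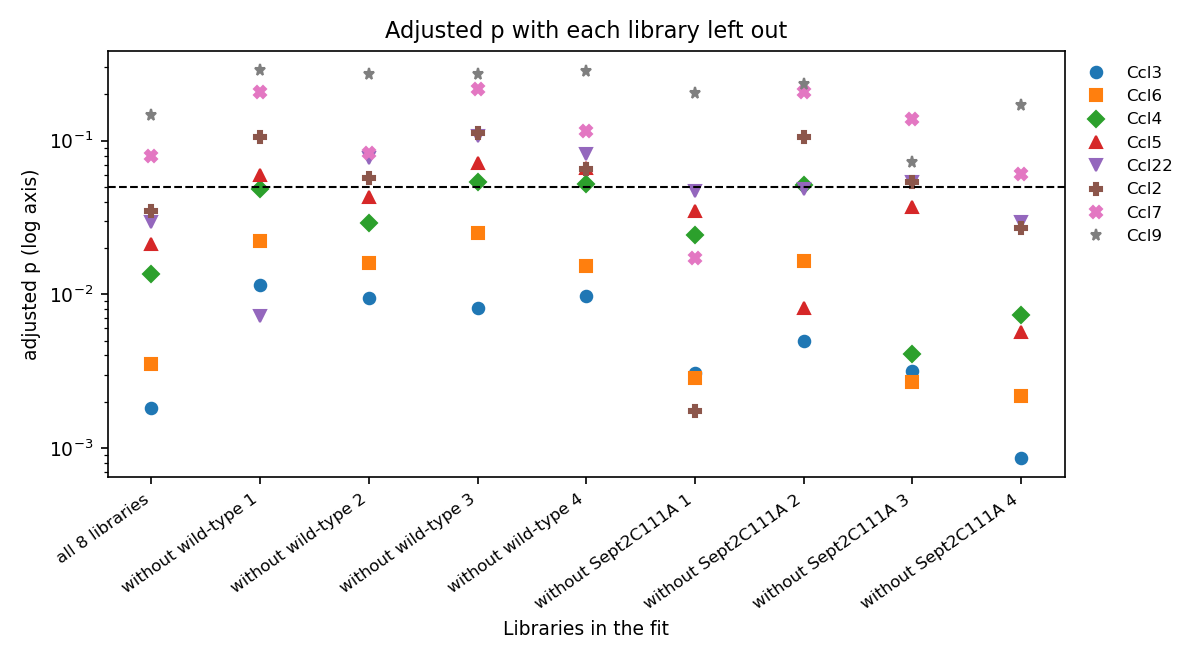
Adjusted p (log axis) of 8 ligands in edgeR with all 8 libraries and with each library left out (x axis); the dashed line is the threshold of 0.05. Ccl3 and Ccl6 stay under the line in every fit, at 0.0115 and 0.0251 or less, and Ccl2, Ccl4, Ccl5 and Ccl22 cross it in some.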

How the data were processed

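The deposited files give, per library, expected counts (estimated counts that need not be whole) for 17364 gene symbols, per the file headers and values. Bowtie2, RSEM 1.3.1, DESeq2 1.4.5 and the build mm10 appear, without their roles, in the submitters' processing notes, and mRNA was enriched on oligo(dT) beads per the labels' protocols. The sources used here do not give annotation, strand setting or gene filters. Counts were rounded, filtered with filterByExpr (minimum count 10, leaving 12462 genes) and normalized by TMM. A gene with fewer than 3 counts lies below 0.14 to 0.159 CPM, for counting error only. Sept2C111A was compared with wild type in edgeR 4.0.16 (R 4.3.3), two-sided, in a model with no term but genotype, adjusted by Benjamini-Hochberg. The SE is the log2 fold change over the square root of F. Log2 CPM profiles used a prior count of 2. No library was a copy of another (mean chi-square per gene at least 3.87, where sampling noise gives about 1).

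Alternatives were other normalizations and filters, DESeq2 1.42.0, limma 3.58.1 voom with and without sample weights, a replicate block, each library left out, Sept2C111A libraries 2 and 3 left out, and stricter thresholds. The fit was tested on simulated counts, where it recovered 92.9% of changes at an absolute log2 fold change of 1 and 66% at 0.5. The simulation gave all genes and both groups the same spread. Sept2C111A libraries here were more spread than wild-type ones, so these shares need not hold for them. The members, the gene lists and the alternatives were chosen with earlier results of these data known. The text names all 10 ligands, Septin2, the receptors Ccr1 and Ccr2, up to 3 called genes per list in order of adjusted p, the most abundant marker of lists with a tested gene, and the 3 nearest profiles to each of the 3 ligands with the smallest p. Ccr3, and the counts' other genes, were named after their values were seen. Of the further marker lists, 1 of 3 tested T and NK cell markers (Cd4) and 1 of 3 endothelial markers (Pecam1) were higher, and 0 of 3 neutrophil, 0 of 1 B cell, 0 of 3 dendritic cell and 0 of 1 mast cell and basophil markers passed in edgeR (1, 0, 0 and 0 at an unadjusted p under 0.05); these were led by S100a9, Cd79b, Zbtb46 and Mcpt8. Over all tested genes edgeR called 3.43% higher and 3.03% lower, and 24.8% had an unadjusted p under 0.05. Promoter windows were aligned with Biopython 1.88. Some genes that this rule covers are not reported here.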

Additional observations from a re-analysis of the deposited data

Results flagged for a closer look

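In each genotype, the gap between the lowest or highest library and its nearest neighbour was compared with the range of the 4 libraries (Dixon's ratio, critical value 0.829), for 76 gene and genotype groups; chance flags about 1 in 20. The lowest wild-type library of Ccl22, library 1 at 3.29 CPM against 5.68 to 6.08 CPM in the others, had a ratio of 0.855. The highest Sept2C111A library of Ccl20, library 1 at 6.72 CPM against 2.60 to 2.86 CPM, had 0.937. The highest Sept2C111A library of Hmgcs1, library 1 at 41.3 CPM against 36.9 to 37.4 CPM, had 0.883.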

How the results depend on the processing

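Ccl6 was called higher, and was the only ligand so called, under every alternative. The 5 ligands called lower became 1 at an adjusted p under 0.01 and ran from 1 to 6 with 1 library left out. They were 4 to 6 under the other alternatives. Over all genes, 428 higher and 377 lower became 693 and 709 with DESeq2, 665 and 678 with sample-weighted voom, 282 and 210 without Sept2C111A libraries 2 and 3, 136 and 84 at an adjusted p under 0.01, and 207 and 197 with an absolute log2 fold change of at least 0.5. With 1 library left out they ran from 162 to 1094 higher and from 104 to 983 lower.

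Replicate numbers are shared by the genotypes but did not pair the libraries: same-numbered deviations correlated at 0.137, 0.096, -0.023 and -0.237. With the replicate block 242 genes were higher and 252 lower, and 5 ligands were lower, among them Ccl7 (adjusted p = 0.0472) and not Ccl22 (0.0562).

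Log2 fold changes of genes without a call changed sign in places. With 1 library left out, Ccl12 ran from -0.321 to 0.075, Ccl8 from -0.007 to 0.605 and Ccrl2 from -0.096 to 0.037, and Ccl12 was at 0.018 with sample-weighted voom. The causes were not tested. Depth limits Ccl8, which gave no value under the CPM filter or an adjusted p in DESeq2.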
